A study of Mus musculus with 16 samples.

Results

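Immediate early genes are switched on within minutes of a signal, without new protein synthesis. Kinase cascades reach factors already bound at their promoters, such as SRF with its ELK or MRTF partners and CREB, and the short-lived messages are then cleared. In liver they are known for their burst after partial hepatectomy, injury or feeding, and ATF3 and JUN also for stress signalling. JUN, JUNB, FOS and FOSB are bZIP proteins that pair to form AP-1. ATF3 is a bZIP protein that pairs with JUN proteins or itself. EGR1 and KLF6 are zinc-finger factors, and MYC is a helix-loop-helix factor that pairs with MAX.

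The 10 genes described are Jun, Junb, Fos, Fosb, Egr1, Atf3, Klf6, Myc, Ier2 and Ier3, found by symbol among 40324 symbols of a liver read count table. The label transcription factor holds for 8 of them. Ier2 and Ier3 are immediate early genes, but IER2 is a nuclear protein without a classic DNA-binding domain, and IER3 is a protein of stress and survival signalling. The livers came from littermate db/db mice, an obese and diabetic strain whose leptin receptor gene is mutated. The arcA group (n = 8) received an adeno-associated virus of serotype 8 encoding arcA, and the GFP group (n = 8) the same serotype encoding GFP. Injection was at about 5 weeks of age, and all livers were taken 5 weeks later, at 10 weeks. Untreated mice and mice without the db/db genotype were not analysed here. The labels give neither the protein that arcA encodes nor the promoter of the transgenes.

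Libraries held 37325610 to 45874797 counts in arcA livers and 28912563 to 53520828 counts in GFP livers. Albumin (Alb), the defining hepatocyte transcript, averaged 68714 CPM (read counts scaled to library depth, with TMM correction) in arcA livers and 60761 CPM in GFP livers, and the smallest edgeR adjusted p among the 10 hepatocyte markers was 0.0697 (Ttr). The ribosomal RNA-like transcript Gm42418 held 11.8%, 18.1% and 19.4% of the counts of GFP 2, 3 and 5. The 10 hepatocyte markers had a median log2 fold change of 0.16, and 1 of them was negative. Their summed level had a median of 91013 CPM in arcA livers and 80526 CPM in GFP livers. Most tested marker transcripts of lymphocytes, monocytes and stellate cells were lower in arcA livers, and the other marker lists are described below. In bulk liver, fewer cells of a type and less RNA per cell cannot be told apart.

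Promoter sequence in RefSeq (GRCm38.p6) was matched for 7 of the 10 genes: Jun, Junb, Fos, Fosb, Atf3, Klf6 and Ier3. The 150 bases upstream of the RefSeq start are printed for Jun, Klf6 and Atf3, whose transcripts fell in arcA livers, and for Junb and Fos, AP-1 genes whose transcripts did not pass the test. Capitals mark the motif matches given after the sequences, and each is written 5′ to 3′ on the strand of its gene.
Jun, chr4:95052223-95052372, minus strand: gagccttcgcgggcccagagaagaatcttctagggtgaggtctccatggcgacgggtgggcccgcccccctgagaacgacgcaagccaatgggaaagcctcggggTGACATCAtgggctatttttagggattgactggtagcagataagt
Klf6, chr13:5861339-5861488, plus strand: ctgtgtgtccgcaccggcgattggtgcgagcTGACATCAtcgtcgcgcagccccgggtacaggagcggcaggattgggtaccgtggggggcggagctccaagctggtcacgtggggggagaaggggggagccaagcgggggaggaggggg
Atf3, chr1:191183334-191183483, minus strand: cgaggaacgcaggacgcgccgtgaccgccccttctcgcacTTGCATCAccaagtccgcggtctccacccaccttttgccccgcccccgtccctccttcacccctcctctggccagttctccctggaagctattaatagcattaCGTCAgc
Junb, chr8:84978749-84978898, minus strand: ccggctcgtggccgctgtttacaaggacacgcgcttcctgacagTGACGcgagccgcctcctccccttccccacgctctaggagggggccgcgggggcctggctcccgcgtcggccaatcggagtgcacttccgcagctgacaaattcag
Fos, chr12:85473740-85473889, plus strand: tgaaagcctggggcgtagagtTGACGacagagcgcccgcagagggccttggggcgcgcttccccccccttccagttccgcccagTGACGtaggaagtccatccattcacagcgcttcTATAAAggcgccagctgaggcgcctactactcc

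Each of 6 motifs was searched on both strands of the 300 bases from 250 before to 50 after each start. The motif TGACNTCA, an 8-base element of the kind that JUN and ATF proteins bind, matched as TGACATCA in Jun, 45 bases upstream, and in Klf6, 119 bases upstream. It matched 8.83% of 32851 RefSeq promoters of the same length. The motif TGATGCAA, the composite element of C/EBP and ATF proteins, matched Atf3 110 bases upstream on the opposite strand, printed there as TTGCATCA, and matched 0.895% of all promoters.
The motif TGACG, the CREB half-site, matched Atf3 7 bases upstream on the opposite strand, Junb 106 bases upstream, Fos 129 and 66 bases upstream, and Fosb 60 bases upstream. It matched 20.8% of all promoters, and the full palindromic CREB site would have counted under both TGACG and TGACNTCA. TATAAA matched Fos 33 bases upstream and began at the RefSeq start itself in Junb, against 13.6% of all promoters. The motif TGANTCA, which is broader than the classic AP-1 site it includes, matched 7.81% of all promoters. Neither it nor the CArG box that SRF binds (1.63%) matched any of the 7 windows, and Ier3 held none of the 6 motifs. Sites more than 250 bases upstream, and any in Egr1, Myc and Ier2, were not searched, so no gene is shown to lack them. The Atf3 stretch at chr1:191183334-191183483 lies inside the gene span given below, which runs to 191218039 on the minus strand. Sequence at that far end was not searched. These are matches of letters, and no binding was measured.

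In arcA livers 4 of the 9 genes with enough counts to be tested fell, namely Atf3, Klf6, Jun and Myc, and none rose. Atf3 averaged 0.328 of its GFP level, Myc 0.446, Jun 0.564 and Klf6 0.575. Junb, Fos, Ier2 and Ier3 did not pass the test, and neither did Egr1, whose level in one arcA liver was as high as in any GFP liver. The test was edgeR's quasi-likelihood F test over 14476 genes with Benjamini-Hochberg adjustment and a threshold of 0.05. Of all genes tested, 6.57% were lower in arcA livers (951 genes), 4.26% were higher (617) and 10.8% passed in either direction. At an unadjusted p under 0.05, which 24.9% of all genes tested met, Egr1 joined the 4 lower genes and none of the 9 was higher. The median log2 fold change was -0.80 over the 9 genes and 0.01 over all genes tested.

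**Figure D1:**
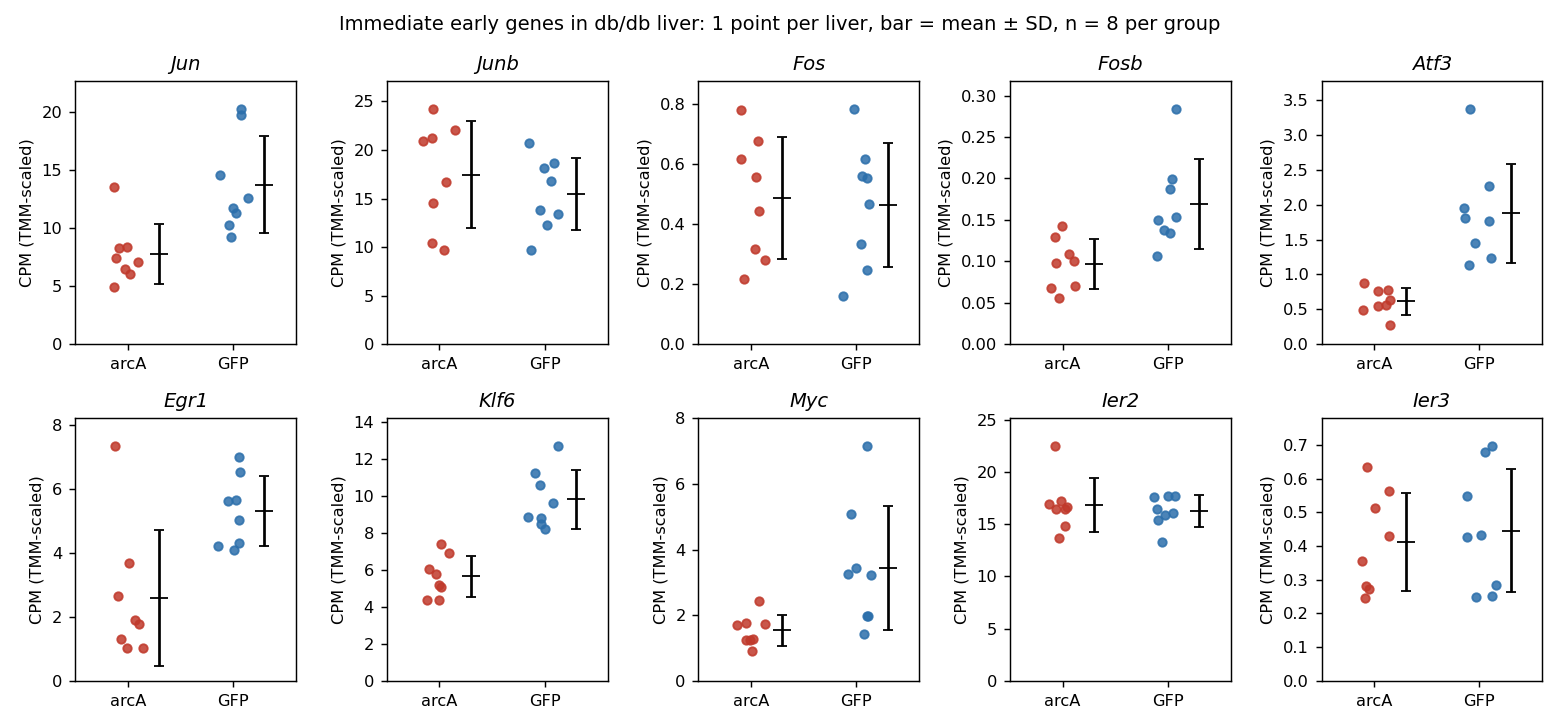
CPM (TMM-scaled) of each gene in every liver, on an axis of its own that starts at 0, with arcA livers in red, GFP livers in blue, and mean ± SD beside the points (n = 8 each). Atf3 and Klf6 do not overlap between the groups, and a single arcA liver stands at 13.5 CPM for Jun and 7.35 CPM for Egr1.

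Among the AP-1 genes, Jun passed the test, while Junb and Fos did not. Jun (chr4:95049034-95052222, minus strand, GRCm38), which encodes the central AP-1 subunit, had 4.97, 7.25 and 13.5 CPM as lowest, median and highest of the arcA livers, against 9.27, 12.2 and 20.2 CPM in GFP livers. In 7 of 8 arcA livers Jun was below every GFP liver, and arcA 1, at 13.5 CPM, was the exception. GFP 1 and GFP 7, at 20.2 and 19.7 CPM, stood above the other GFP livers. The mean was 7.76 ± 2.58 CPM in arcA livers and 13.7 ± 4.18 CPM in GFP livers (SD, n = 8 each). Jun fell by 0.83 on the log2 scale (SE 0.205; 95% interval -1.26 to -0.39; edgeR adjusted p = 0.0162). With 5 surrogate variables in the model its log2 fold change was -0.58 and it no longer passed (adjusted p = 0.138).

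Jun lies over 689 bases of the antisense gene Junos, and the sources used here do not say whether counting used strand. Junos itself averaged 0.192 CPM in arcA livers and 0.328 CPM in GFP livers, with a log2 fold change of -0.72 (edgeR adjusted p = 0.311).

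Junb (chr8:84974484-84978718, minus strand), whose protein can counter the growth-promoting action of JUN within AP-1, had 9.68, 18.8 and 24.2 CPM as lowest, median and highest of the arcA livers, against 9.70, 15.3 and 20.8 CPM in GFP livers. The ranges overlapped, with 4 arcA livers above every GFP liver and 1 below. The mean was 17.5 ± 5.49 CPM in arcA livers and 15.5 ± 3.73 CPM in GFP livers (SD, n = 8 each), a log2 fold change of 0.18 (SE 0.205; 95% interval -0.26 to 0.61; edgeR adjusted p = 0.655). Over its whole gene span, Junb shares 351 bases with Prdx2 on the other strand, a gene at 96.99 CPM in arcA livers and 95.6 CPM in GFP livers. Whether exons of both genes overlap was not examined, so whether part of the Junb count is Prdx2 reads is not known.

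Fos (chr12:85473890-85477273, plus strand), the AP-1 partner with the shortest pulse, was near the lower end of detection. It had 0.217, 0.499 and 0.778 CPM as lowest, median and highest in arcA livers, against 0.161, 0.509 and 0.781 CPM in GFP livers. The groups lay over each other, with 163 counts in all arcA livers together and 143 in all GFP livers. Its log2 fold change was 0.09 (SE 0.316; 95% interval -0.57 to 0.75; edgeR adjusted p = 0.903).

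Fosb (chr7:19302696-19310051, minus strand) was the weakest gene, with 32 counts in all arcA livers together and 56 in all GFP livers, and it did not reach the count filter. It averaged 0.0968 ± 0.0305 CPM in arcA livers and 0.169 ± 0.0548 CPM in GFP livers (SD, n = 8 each). All 8 arcA livers were below the GFP median and 5 were below every GFP liver. In a fit of all genes without the filter, Fosb had a log2 fold change of -0.79 (SE 0.454; edgeR adjusted p = 0.328) and did not pass.

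Atf3 (chr1:191170296-191218039, minus strand), a stress-induced repressor and activator that pairs with JUN proteins, had the largest log2 fold change of the 9 genes. It had 0.272, 0.598 and 0.873 CPM as lowest, median and highest in arcA livers, against 1.14, 1.79 and 3.37 CPM in GFP livers. The groups did not overlap. Of all genes tested, 1.2% were lower in arcA livers without overlap. The highest GFP value was that of GFP 7, and the lowest arcA value that of arcA 5. The mean was 0.616 ± 0.192 CPM in arcA livers and 1.88 ± 0.711 CPM in GFP livers (SD, n = 8 each), from 202 and 619 counts in all arcA and all GFP livers. Atf3 fell by 1.61 on the log2 scale (SE 0.241; 95% interval -2.11 to -1.10; edgeR adjusted p = 0.000311). Over 30 alternative settings the log2 fold change lay between -1.77 and -1.31 and passed in each. The small RNA gene Gm24748, which shares 108 bases with Atf3 on the other strand, had 0 counts in every library.

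Among the zinc-finger genes, Klf6 (chr13:5861482-5870394, plus strand), a factor known in liver from stellate cell activation and from hepatocyte growth control, had the narrowest spread of the genes that fell. It had 4.39, 5.49 and 7.42 CPM as lowest, median and highest in arcA livers, against 8.22, 9.25 and 12.7 CPM in GFP livers. The groups did not overlap, and GFP 7 was again the highest. The mean was 5.65 ± 1.10 CPM in arcA livers and 9.82 ± 1.58 CPM in GFP livers (SD, n = 8 each). Klf6 fell by 0.80 on the log2 scale (SE 0.118; 95% interval -1.04 to -0.55; edgeR adjusted p = 0.000275) and passed in all 30 alternative settings, with log2 fold changes between -0.96 and -0.68.

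Egr1 (chr18:34859823-34864984, plus strand), a growth- and stress-induced activator, had 1.02, 1.84 and 7.35 CPM as lowest, median and highest in arcA livers, against 4.10, 5.33 and 7.01 CPM in GFP livers. In 7 of 8 arcA livers it was below every GFP liver, while arcA 1, at 7.35 CPM, was above every GFP liver. The next highest arcA liver had 3.70 CPM. With all livers the log2 fold change was -1.04 (SE 0.357; 95% interval -1.79 to -0.28; edgeR adjusted p = 0.0766). Without arcA 1 it was -1.47 (adjusted p = 0.00157), and without arcA 1 and GFP 7 it was -1.40 (adjusted p = 0.00372). The same gene passed with all livers by DESeq2 (log2 fold change -1.04, adjusted p = 0.0373) and by limma voom with quality weights (-1.33, adjusted p = 0.00563). Egr1 passed in 6 of its 30 alternative settings, with adjusted p-values between 0.00157 and 0.242.

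Myc (chr15:61985391-61990374, plus strand), a driver of growth and ribosome production, had 0.923, 1.49 and 2.44 CPM as lowest, median and highest in arcA livers, against 1.44, 3.25 and 7.16 CPM in GFP livers. All 8 arcA livers were below the GFP median and 4 were below every GFP liver. GFP livers were spread widely, with GFP 4 at 7.16 and GFP 8 at 5.09 CPM, and a coefficient of variation of 30.5% in arcA livers and 54.7% in GFP livers. The mean was 1.54 ± 0.470 CPM in arcA livers and 3.45 ± 1.89 CPM in GFP livers (SD, n = 8 each). Myc fell by 1.17 on the log2 scale (SE 0.287; 95% interval -1.77 to -0.56; edgeR adjusted p = 0.0141), and passed in all 30 alternative settings, with log2 fold changes between -1.52 and -0.94.

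Ier2 (chr8:84661331-84662852, minus strand) was the steadiest gene. It had 13.6, 16.6 and 22.5 CPM as lowest, median and highest in arcA livers, against 13.3, 16.2 and 17.8 CPM in GFP livers. Apart from arcA 1, at 22.5 CPM, the arcA livers lay within the GFP range. Its log2 fold change of 0.05 had a 95% interval from -0.12 to 0.23 (SE 0.084; edgeR adjusted p = 0.774), and its sign changed among the alternative settings, which ran from -0.11 to 0.10. Ier3 (chr17:35821684-35822923, plus strand) averaged 0.412 ± 0.146 CPM in arcA livers and 0.446 ± 0.182 CPM in GFP livers (SD, n = 8 each), and the groups overlapped over most of their ranges. From 138 counts in all arcA livers and 140 in all GFP livers, its log2 fold change was -0.10 (SE 0.283; 95% interval -0.69 to 0.49; edgeR adjusted p = 0.880).

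**Figure D2:**
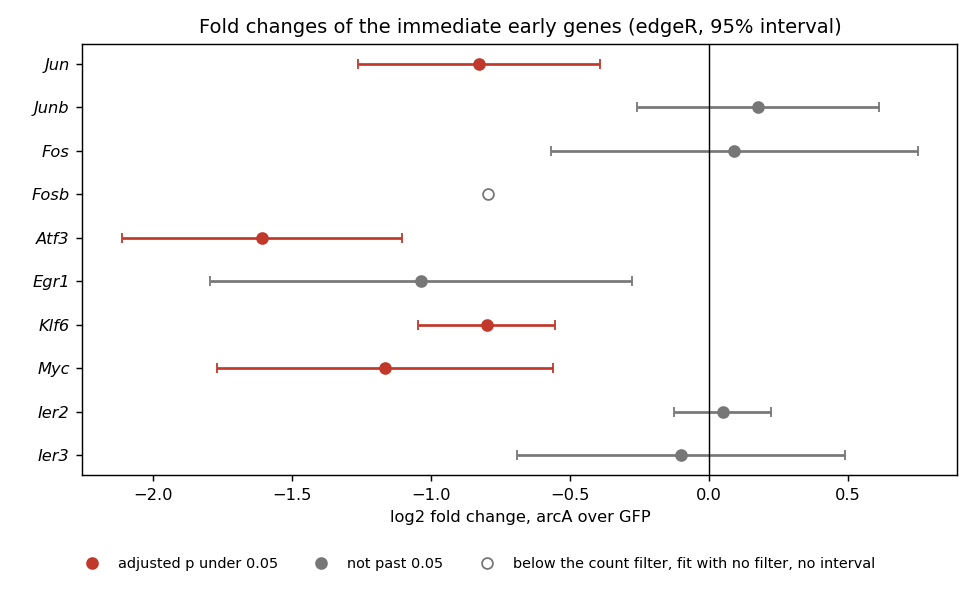
log2 fold change, arcA over GFP, of each gene from edgeR with its 95% interval (bars); red points passed an adjusted p of 0.05, grey points did not, and the open point is Fosb, fitted with no count filter. Atf3, Myc, Jun and Klf6 lie between -1.61 and -0.80, while the intervals of Junb, Fos, Ier2 and Ier3 cross 0.

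Set against gene length, the steady levels spanned a wide range. On the FPKM scale (CPM per kilobase of exon, from GENCODE M21 lengths), Ier2 averaged 11.1 ± 1.70 in arcA livers and 10.7 ± 0.985 in GFP livers, and Junb 7.59 ± 2.39 in arcA livers and 6.72 ± 1.62 in GFP livers (SD, n = 8 each). Jun followed at 2.43 ± 0.809 FPKM in arcA livers and 4.30 ± 1.31 FPKM in GFP livers, then Klf6 at 1.29 ± 0.251 FPKM in arcA livers and 2.24 ± 0.359 FPKM in GFP livers. In arcA livers the order went on with Egr1 (0.578 FPKM), Myc (0.567), Ier3 (0.364), Atf3 (0.286), Fos (0.206) and Fosb (0.0155). In GFP livers it went on with Myc (1.27 FPKM), Egr1 (1.18), Atf3 (0.871), Ier3 (0.394), Fos (0.197) and Fosb (0.0271).
Neighbours in these orders mostly overlapped within their SDs. The steps whose mean ± SD ranges did not meet were Junb to Jun, Jun to Klf6 and Fos to Fosb in arcA livers, and Ier2 to Junb, Jun to Klf6 and Fos to Fosb in GFP livers. Ier3 stood ahead of Atf3 in arcA livers and behind it in GFP livers.

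To test whether these genes changed unequally, the log2 ratio of each pair was taken within each liver and compared between groups by an exact two-sided permutation test, with Benjamini-Hochberg adjustment over all 36 pairs of the 9 genes. This test was chosen after the values were seen. Scaling between libraries largely cancels in such a ratio. It passed for 20 of 36 pairs, which share genes and so are not independent. Of the 20 pairs that join one of Jun, Egr1, Atf3, Klf6 and Myc, whose fold change intervals lay below 0, with one of Junb, Fos, Ier2 and Ier3, 18 passed; as that division was made on the fold changes themselves, the count is a description. The 2 exceptions were Jun to Fos and Jun to Ier3 (adjusted p = 0.0587 each). Not all 18 held when libraries were left out, in 17 settings. Fos to Myc and Klf6 to Ier3 passed in 5 of them, Myc to Ier3 in 7 and Junb to Myc in 9. Jun to Junb passed in 10 and Fos to Klf6 in 11, and the rest of the 18 in all 17.

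The log2 ratio of Klf6 to Ier2 averaged -1.58 ± 0.369 in arcA livers and -0.735 ± 0.327 in GFP livers (SD, n = 8 each), without overlap, a difference of -0.84 (exact permutation test, adjusted p = 0.0028). The ratio of Atf3 to Ier2 did not overlap between the groups either, with a difference of -1.56 (exact permutation test, adjusted p = 0.0028). Both passed in all 17 settings that left out libraries. The ratio of Jun to Junb, the opposed pair within AP-1, averaged -1.15 ± 0.614 in arcA livers and -0.188 ± 0.688 in GFP livers (SD, n = 8 each), a difference of -0.96 (exact permutation test, adjusted p = 0.0283). That pair passed in 10 of 17 settings and just missed the threshold without arcA 5, arcA 7, GFP 1, GFP 2, GFP 7 or GFP 8 and without arcA 1 and GFP 7 together, with adjusted p at most 0.0533 there.
Atf3 also changed more than its partner Jun and more than Klf6, while its ratios to the other 2 genes did not pass. The log2 ratio of Jun to Atf3 was 3.56 ± 0.292 in arcA livers and 2.86 ± 0.452 in GFP livers (SD, n = 8 each; exact permutation test, adjusted p = 0.0107). The log2 ratio of Atf3 to Klf6 was -3.14 ± 0.479 in arcA livers and -2.42 ± 0.444 in GFP livers (SD, n = 8 each; exact permutation test, adjusted p = 0.0198). The difference was -0.50 for Atf3 to Myc (exact permutation test, adjusted p = 0.341) and 0.21 for Egr1 to Atf3 (adjusted p = 0.666). None of the 6 pairs among Junb, Fos, Ier2 and Ier3 passed.

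**Figure D3:**
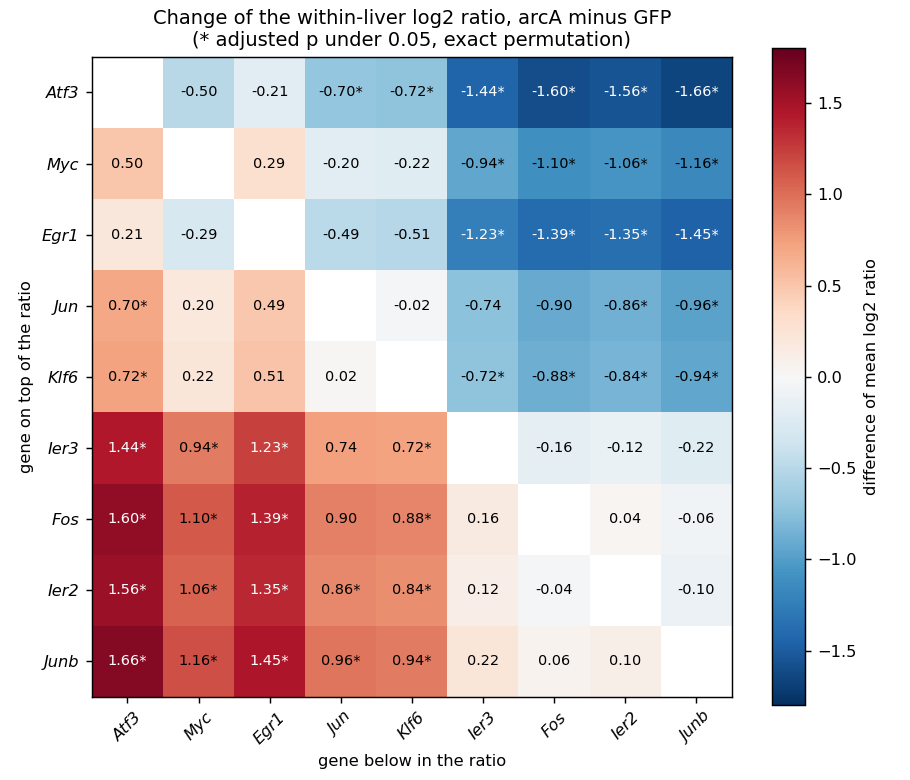
Difference, arcA minus GFP, of the mean within-liver log2 ratio for every pair of the 9 tested genes, with the gene on top of the ratio in rows and the gene below it in columns; asterisks mark an adjusted p under 0.05 in the exact permutation test. Atf3 to Junb is the largest at -1.66, and the block of Ier3, Fos, Ier2 and Junb holds no asterisk.

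No pair of the genes was shown to move together from liver to liver. Within each group, Pearson's r and Spearman's rho were computed for the 36 pairs over the 8 livers, 72 relations in all, and none passed after adjustment over 144 tests (exact permutation; smallest adjusted p = 0.0893). That smallest value belonged to Junb and Fos in GFP livers, with r = 0.932 (exact permutation p = 0.00062) and rho = 0.881 (p = 0.00724; adjusted p = 0.348), and r = 0.799 without the 2 livers farthest from the Junb median. Jun and Atf3 in arcA livers had r = 0.797 (exact permutation p = 0.0293, adjusted p = 0.603), rho = 0.929 (p = 0.00223, adjusted p = 0.161) and r = 0.949 without 2 livers. The relation of Jun and Egr1 in arcA livers, with r = 0.779 (exact permutation p = 0.0243, adjusted p = 0.583) and rho = 0.619 (p = 0.115, adjusted p = 0.935), rested on the 2 livers farthest from the Jun median, since r was 0.121 without them. The median r was 0.31 over the 36 pairs in arcA livers and -0.02 in GFP livers.

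Single livers led several genes at once. GFP 7, the deepest library, was the highest GFP liver for Fosb, Egr1, Atf3 and Klf6, and arcA 1 was the highest arcA liver for Jun, Egr1 and Ier2. The lowest arcA value of 4 of the 10 genes belonged to arcA 5. Without arcA 1 and GFP 7, an alternative chosen after seeing the data, 5 of the 9 genes passed, the 4 named above and Egr1. Of all 14475 genes tested there, 582 were lower and 311 higher.

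**Figure D4:**
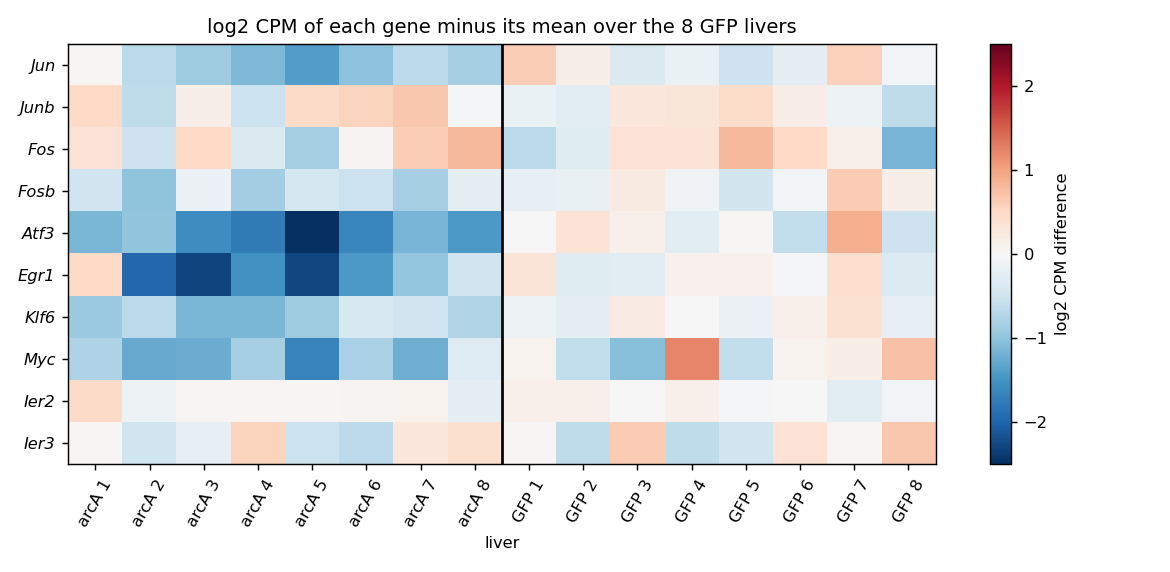
log2 CPM of each gene (rows) in each liver (columns, arcA left of the line, GFP right of it) minus the mean of the 8 GFP livers, with blue lower and red higher. Atf3, Klf6, Myc and Fosb are below the GFP mean in all 8 arcA livers, and Egr1 and Jun in 7 of 8. In arcA 1, Egr1, Ier2, Junb and Fos are above the GFP mean, and Jun and Ier3 slightly so.

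The genes whose levels followed each gene most closely over the 16 livers, after each group's mean was removed, were sought among 11174 genes by Pearson's r on log2 CPM. The best match of Myc was Kdm4c, a histone demethylase gene (r = 0.87, rho = 0.89), then Axin1, a Wnt pathway scaffold gene (r = 0.84, rho = 0.85). Egr1 was followed most closely by Colec12 (r = 0.86, rho = 0.80), Ier2 by Mindy1 (r = 0.83, rho = 0.81), Atf3 by Zfp764 (r = 0.82, rho = 0.77) and Jun by Aox1 (r = 0.81, rho = 0.70). Fos was followed by Sntg1 (r = 0.81, rho = 0.75), Junb by Zfp330 (r = 0.78, rho = 0.80) and Ier3 by Tmem44 (r = 0.77, rho = 0.77). None of these best matches was another of the 10 genes, which were left out of the search. Each is the highest of many values over the same 16 livers, which share depth and scaling, and is given as a description.

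Most genes that work with these factors did not pass the test. The same held over all genes tested, of which 6.57% were lower, 4.26% higher and 10.8% passed in either direction. The list counts below stand beside these shares. Of 20 other bZIP genes that can pair with AP-1 or ATF proteins, 19 were tested, 1 fell and none rose, with a median log2 fold change of -0.03. The one that fell was Batf, an AP-1 family gene of lymphocytes, which averaged 0.178 ± 0.124 CPM in arcA livers and 0.609 ± 0.187 CPM in GFP livers (SD, n = 8 each), a log2 fold change of -1.74 (SE 0.336; edgeR adjusted p = 0.00246). Jund, the constitutive JUN family gene, averaged 49.4 ± 5.70 CPM in arcA livers and 52.4 ± 8.35 CPM in GFP livers (SD, n = 8 each; log2 fold change -0.09, edgeR adjusted p = 0.609). Jund, Dusp1 and Nr4a1 were named after their values were seen.

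Of 32 other immediate early genes, 26 were tested, 3 fell and 1 rose, with a median log2 fold change of -0.15. Rhob, a stress-induced small GTPase gene, averaged 14.9 ± 2.17 CPM in arcA livers and 21.96 ± 3.40 CPM in GFP livers (SD, n = 8 each), a log2 fold change of -0.56 (edgeR adjusted p = 0.00108). Gadd45b, a stress and growth arrest gene, had a log2 fold change of -1.22 (edgeR adjusted p = 0.00347), and so had the nuclear receptor gene Nr4a2 (-1.22, adjusted p = 0.00835). Btg1, an antiproliferative gene, rose by 0.29 on the log2 scale (edgeR adjusted p = 0.0096), but not when libraries were scaled on hepatocyte markers (0.13, adjusted p = 0.282). Nr4a1 varied from 0.489 to 19.6 CPM among arcA livers and from 0.628 to 8.36 CPM among GFP livers, and its log2 fold change of 0.84 did not pass (edgeR adjusted p = 0.566). The other 6 of the list, Egr2, Egr3, Nr4a3, Ptgs2, Arc and Npas4, did not reach the count filter.

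Of 23 feedback inhibitors, which restrain the response at kinases, receptors, transcription factors or messages, 21 were tested, 3 fell and none rose, with a median log2 fold change of 0.03. The phosphatase gene Dusp8 averaged 0.537 ± 0.426 CPM in arcA livers and 1.87 ± 1.08 CPM in GFP livers (SD, n = 8 each; log2 fold change -1.81, edgeR adjusted p = 0.0114). Dusp5, which acts on ERK in the nucleus, had a log2 fold change of -0.92 (edgeR adjusted p = 0.0154). Spry1, an inhibitor of receptor tyrosine kinase signalling, had a log2 fold change of -0.42 (edgeR adjusted p = 0.0445) that missed the threshold in 16 of 30 alternative settings. Dusp1, the most used inhibitor of stress kinases, averaged 23.1 ± 12.3 CPM in arcA livers and 22.2 ± 8.72 CPM in GFP livers (SD, n = 8 each; edgeR adjusted p = 0.943).

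Upstream, all 16 kinase, SRF and CREB factor genes were tested, 2 fell and none rose, with a median log2 fold change of 0.00. Mrtfa, the actin-regulated partner of SRF, had a log2 fold change of -0.41 (edgeR adjusted p = 0.0139), and Elk3, an ETS partner of SRF, -0.39 (adjusted p = 0.0258). The Elk3 call was lost without arcA 5, GFP 6 or GFP 7. Among 13 genes of the MYC and MLX network, 12 were tested, 1 rose and none fell, with a median log2 fold change of 0.02. The gene that rose was Mlxipl, which encodes the glucose-sensing factor ChREBP, at 179 ± 27.8 CPM in arcA livers and 127 ± 22.5 CPM in GFP livers (SD, n = 8 each; log2 fold change 0.49, edgeR adjusted p = 0.0073). It missed the threshold when libraries were scaled on hepatocyte markers (0.33, adjusted p = 0.0526) and without GFP 2, 3 and 5 (0.40, adjusted p = 0.0600).

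All 23 listed genes known as MYC targets, most of them in ribosome and nucleotide production, were tested, 2 fell and none rose, with a median log2 fold change of -0.05. The log2 fold change was negative in 20 of the 23, while the median over all genes tested was 0.01. This direction was not tested for the list, and the activity of MYC was not measured. The 2 that fell were small changes, Mybbp1a at -0.16 (edgeR adjusted p = 0.0318) and Nop56 at -0.22 (adjusted p = 0.0426), and they passed in 19 and 15 of 30 alternative settings. Of 11 heat shock and oxidative stress genes, all tested, 1 fell and none rose, with a median log2 fold change of 0.06. The gene that fell was Hmox1, which encodes heme oxygenase, at 10.4 ± 2.70 CPM in arcA livers and 16.1 ± 3.48 CPM in GFP livers (SD, n = 8 each; log2 fold change -0.63, edgeR adjusted p = 0.0161).

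**Figure D5:**
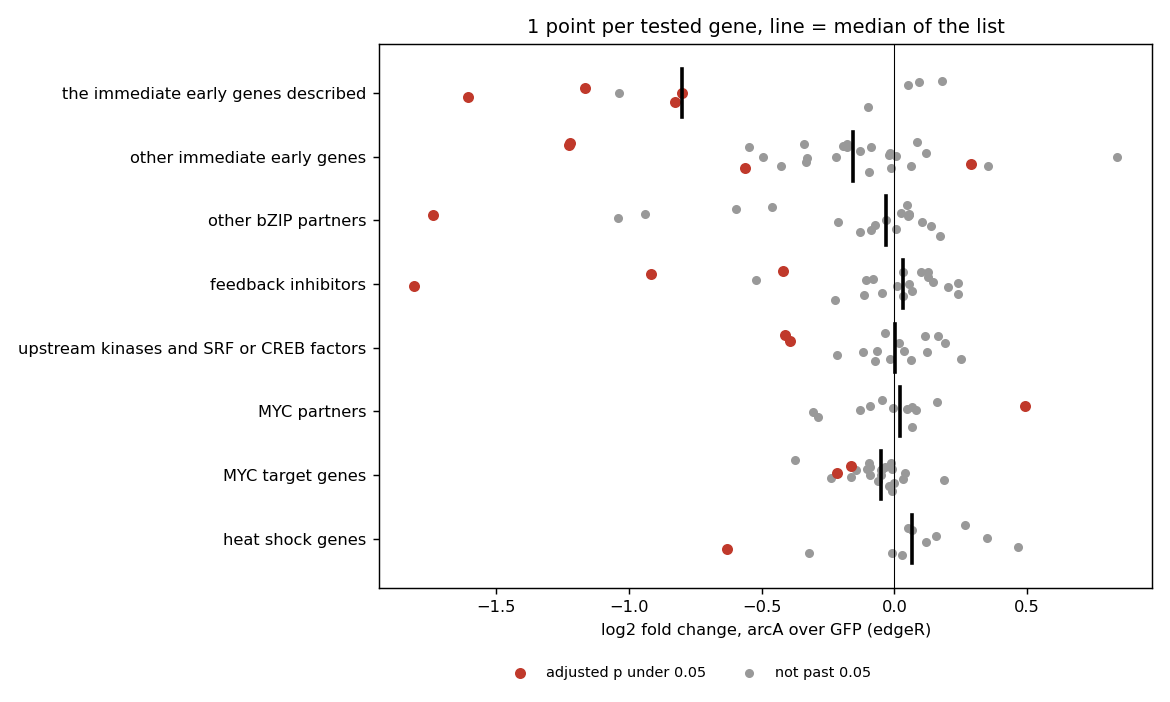
log2 fold change, arcA over GFP, of every tested gene in the lists around the immediate early genes, with 1 point per gene, red where the adjusted p was under 0.05, and a line at each list's median. The median of the 9 genes described is -0.80, and the medians of the other 7 lists lie between -0.15 and 0.06.

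Transcripts of other cell types differed between the same livers. All 10 tested T and NK cell markers were lower in arcA livers, with summed levels of 0.788 to 3.56 CPM in arcA livers and 9.88 to 23.0 CPM in GFP livers. All 4 tested B and plasma cell markers were lower, at 1.63 to 2.63 CPM in arcA livers and 51.5 to 300.3 CPM in GFP livers. Among the markers of monocytes and lipid-associated macrophages 9 of 10 were lower, at 9.94 to 19.4 CPM in arcA livers and 25.02 to 52.5 CPM in GFP livers.
Resident cells had some lower markers too. Of Kupffer cell and macrophage markers 6 of 11 were lower, at 112 to 396 CPM in arcA livers and 270 to 449 CPM in GFP livers. Of stellate cell markers 7 of 11 were lower, at 187 to 281 CPM in arcA livers and 294 to 386 CPM in GFP livers. Of sinusoidal endothelial markers 1 of 10 was lower, at 90.03 to 136 CPM in arcA livers and 101 to 160 CPM in GFP livers. None of the tested neutrophil (3 of 9 listed), cholangiocyte (5 of 6) and erythroid (5 of 5) markers passed, and no marker of any list was at 0 in every library.

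AP-1 genes, Atf3, Klf6 and Egr1 are transcribed in many of these cells, and the part of cell composition in their lower levels was not tested. Over the 8 livers of each group, 180 relations between the 9 genes and 10 summed marker lists were computed, and none passed after adjustment over 360 tests (exact permutation; smallest adjusted p = 0.402). The unadjusted p of r was under 0.05 for 11 of them. One such relation was that of Egr1 with T and NK cell markers in GFP livers, with r = 0.805 (exact permutation p = 0.014, adjusted p = 0.791), rho = 0.929 (p = 0.00223, adjusted p = 0.402) and r = 0.691 without 2 livers. In arcA livers the same relation had r = 0.077 and rho = 0.167. The smallest unadjusted p was that of a negative relation, Ier2 with sinusoidal endothelial markers in GFP livers. It had r = -0.809 (exact permutation p = 0.00826, adjusted p = 0.595) and rho = -0.952 (p = 0.00114, adjusted p = 0.402). The summed hepatocyte marker counts were mostly Alb, with means of 68714 CPM in arcA livers and 60761 CPM in GFP livers. As that sum had a higher median in arcA livers (91013 CPM against 80526 CPM), scaling on it moves fold changes down. With libraries scaled on hepatocyte markers in this way, the median log2 fold change of all genes was -0.15. Of 14476 genes, 1941 were then called lower and 63 higher. Atf3, Klf6, Jun, Myc and Egr1 were among the lower genes, Egr1 with an edgeR adjusted p of 0.0476.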

How the data were processed

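The values are read counts per gene symbol as the authors deposited them. Per the submitters' processing notes, bcl2fastq, STAR 2.5.1a and featureCounts 1.4.6-p5 (Subread) were used with the mouse build GRCm38; the sources used here give no annotation release, strand setting or rule for read mates. Per the labels' protocols, RNA was extracted with Trizol, with oligo-dT named for the libraries. Of counts from 1 to 20, 68.1% to 71.4% per library were even, so the number of independent fragments is uncertain; intervals do not cover this.

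Exact copies of lines were removed and repeated symbols summed, which left 40324 symbols from 40757 lines. Groups were tested with edgeR 4.0.16 under R 4.3.3 (robust quasi-likelihood F test, TMM scaling, filterByExpr, group as the only term) on 14476 genes. CPM used TMM-scaled library sizes, and log2 CPM a prior count of 2. Alternatives used DESeq2 1.42.0, limma 3.58.1 (voom) and sva 3.50.0. The scripts were tested on simulated data. Positions and lengths come from GENCODE M21 and promoters from RefSeq.

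The genes, lists and alternatives were chosen with earlier results of these data known. All 10 genes were named, with up to 4 genes of smallest p past the threshold per list and 3 genes most like each, of which the closest are printed; a gene that this rule takes is not reported here. The labels number the livers but do not state that each came from a separate mouse, so p-values measure the spread between these samples. Over all genes tested, with each group's mean removed, same-numbered arcA and GFP livers correlated between -0.05 and 0.16. Numbers were therefore not treated as pairs. Single genes can differ from this, and a fit with the number as a block is given below.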

Additional observations from a re-analysis of the deposited data

Results flagged for a closer look

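In the arcA group, arcA 1 stood apart in 3 genes on the CPM scale. Jun was 13.5 CPM there, and the next arcA liver had 8.34 CPM. Egr1 was 7.35 CPM, with the next arcA liver at 3.70 CPM, and Ier2 was 22.5 CPM, with the next at 17.2 CPM. In each case the gap to the nearest liver was above Dixon's 95% critical value for 8 samples, at 0.606 of the group's range for Jun, 0.577 for Egr1 and 0.597 for Ier2. These 3 were found among 20 groups, of which chance gives about 1 only if CPM is normally distributed and the groups are independent. The groups share the same livers. On log2 CPM, arcA 1, the next and the lowest arcA liver stood at 3.76, 3.07 and 2.33 for Jun. They stood at 2.89, 1.91 and 0.0963 for Egr1, and at 4.49, 4.11 and 3.78 for Ier2. The rule was not applied on that scale, so the count is a description. Atf3 and Klf6 of arcA 1, at 0.783 and 5.10 CPM, lay below every GFP liver, so that liver did not stand apart in all genes. The cause was not tested.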

How the results depend on the processing

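Under all 30 alternatives 3 to 5 of the genes were called lower and none higher; Jun was the call lost, with surrogate variables. Over all genes tested, 617 were higher and 951 lower in arcA livers. Without scaling beyond library size, 253 were higher and 800 lower; scaled on hepatocyte markers, 63 and 1941. A minimum of 1 CPM in 8 libraries gave 407 higher genes. Without GFP 2, 3 and 5, 369 were higher. Without arcA 1 and GFP 7, 311 were higher and 582 lower, and Dusp5, Mrtfa, Elk3, Spry1, Mybbp1a and Nop56 were no longer called. Leaving out 1 library at a time gave 389 (without GFP 2) to 638 higher and 731 to 1046 lower genes, 4 to 5 of the genes described, and 14 to 22 of 36 pairs. The cause was not tested, beyond fewer genes or libraries in the fit. With the replicate number as a block, 592 genes were higher and 876 lower, and Egr1 passed (-1.28, adjusted p = 0.0219). Under that block the SE of Jun was 0.079 (edgeR adjusted p = 6.03e-05) and that of Myc 0.177 (adjusted p = 0.00291), both smaller than without it. Among the tested genes described, only Fos and Ier3 had a larger SE, at 0.374 and 0.293. The labels do not say what a shared number means. With surrogate variables Nr4a2, Elk3, Spry1, Nop56 and Hmox1 were no longer called either. Fosb, Fos and Ier3 had 32 to 163 counts per group; how far depth limits them was not separated from the spread between livers.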
